A study of Mus musculus with 22 samples.

Results

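Retinal ganglion cells of newborn mice were set against ganglion cells of mid-gestation embryos, 1 cell per microarray. The comparison holds 7 of the 22 single cells of the series: 4 ganglion cells taken at P0, the day of birth (cells A3, C6, A6 and F1), and 3 taken at embryonic day 15.5, E15.5 (cells B1, B5 and C7). They were chosen by the stage and cell type in their labels. The strain CD1 is named for E15.5 cell B1, and no genotype or treatment is given for any of the 7. Each cell came from an enzymatically dissociated mouse retina, its cDNA was amplified by 35 cycles of PCR, and the product was hybridised to a whole-genome expression array. The authors assigned cell types only after profiling, and no animal or litter is named, so the cells of a stage may share 1 animal. Each stage therefore counts as 1 sample, no test between stages was possible, and every value below is a description of these 7 cells.

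Ganglion cells are the output neurons of the retina and the first retinal neurons to be born. In the mouse they are born mainly in the middle of gestation and send their axons through the optic nerve toward the brain. Around birth these axons branch in their targets and begin to form synapses, and surplus ganglion cells start to die.

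Levels are log2 of the MAS5 signal, a linear brightness that the authors computed for each probe set. Signals under 200 were set to 200, so the floor lies at 7.64 on this scale, and a gene is called detected at a signal of 1000 or more, or 9.97 on the log2 scale. Differences are the mean over the P0 cells minus the mean over the E15.5 cells. A gene is called higher or lower at P0 where that difference is at least 2 in size (4-fold) and no P0 cell overlaps an E15.5 cell. The 7 cells differed in how much was detected: 3481, 3084, 2293 and 4352 of 18194 genes in P0 cells A3, C6, A6 and F1, against 2476, 2466 and 1518 in E15.5 cells B1, B5 and C7. P0 cell A6 thus lay within the range of E15.5, while the other P0 cells lay above it. Cells resembled each other little: Spearman correlations over the 7184 genes tested were 0.254 to 0.436 within P0, 0.23 to 0.286 within E15.5 and 0.157 to 0.329 across the stages.

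Ganglion cell markers were present in all 7 cells. Of 10 markers measured, P0 cells detected 6 to 9 and every E15.5 cell detected 8. The light neurofilament gene Nefl was at 14.00, 15.68, 13.78 and 13.91 in P0 cells A3, C6, A6 and F1, against 14.61, 14.36 and 15.34 in E15.5 cells B1, B5 and C7. Gap43, a growth-cone membrane protein, was at 13.95, 14.94, 13.68 and 14.31 in the P0 cells, against 15.17, 14.84 and 15.21 in the E15.5 cells. Both genes were high in every cell, and their stages overlapped. The vesicular glutamate transporter gene Slc17a6 lay between 11.72 and 12.46 in the P0 cells, against 10.49 to 12.08 in the E15.5 cells. Other cell types were represented unevenly. The amacrine markers Tfap2a, Tfap2b, Gad1, Gad2 and Ptf1a, the photoreceptor markers Nrl, Otx2, Rcvrn and Pdc and the horizontal cell markers Lhx1, Onecut1, Prox1 and Calb1 were undetected in all 7 cells. None of the 7 cells detected any of 23 vascular and immune genes or of 24 lens and pigment epithelium genes.

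The longer lists for other retinal cells did hold detected members. Pax6, a factor that ganglion and amacrine cells share, was at 13.97, 14.97, 14.71 and 13.63 in P0 cells A3, C6, A6 and F1, against 14.75, 14.19 and 15.33 in E15.5 cells B1, B5 and C7. Of 18 amacrine list genes, P0 cells detected 2 or 3 and E15.5 cells 1 or 2, the others being Ptprs in all 4 P0 cells and 2 of the E15.5 cells, Barhl2 in A3 and C6, and Slc32a1, at 10.15, in A6. Of 9 horizontal list genes, Onecut2 was at 13.10 in P0 cell A6 and 11.80 in E15.5 cell B1, and Septin4 at 11.48 in P0 cell F1. Of 20 photoreceptor and bipolar list genes, Rxrg was at 12.05, 12.43 and 11.77 in P0 cells A3, C6 and F1 and Prkca at 11.24 in F1, and no E15.5 cell detected any. Of 29 cell cycle genes, P0 cells detected 2 to 7 and E15.5 cells 3 or 4. Among them the replication factor gene Mcm6 was at 12.46 in P0 cell C6 and 10.92 in F1, and Mcm2 at 13.53 in E15.5 cell B5 and 15.32 in C7. Whether RNA of other cells has a part in these levels was not tested.

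Globin transcripts differed between the stages in part. Of 16 globin and erythroid genes measured, P0 cells detected 1 and E15.5 cells 4 or 5. The gene detected at P0 was Hba-a2, an alpha globin, at 15.29, 15.12, 14.65 and 14.80 in P0 cells A3, C6, A6 and F1, against 16.05, 15.98 and 17.30 in E15.5 cells B1, B5 and C7. It thus stood high in every cell, lower at P0 without overlap but by less than 4-fold. Its only probe set was also at 14.59 to 16.32 in the 6 ganglion cells of E12.5 to E14.5 and the 5 P0 amacrine cells. Hba-a1, another alpha globin gene, was at the floor in all 7 cells. Whether the Hba-a2 probe set measures globin RNA alone was not tested. A set of 5 erythroid markers that leaves out Hba-a2 had a summed signal of 1000 to 1137 in the P0 cells against 64551 to 151122 in the E15.5 cells. The embryonic globin gene Hbb-y was at 8.40 in P0 cell A3 and at the floor in the other P0 cells, against 17.05, 15.82 and 16.79 in the E15.5 cells. Hba-x, another embryonic globin, was at the floor in all P0 cells, against 13.76, 12.31 and 14.04 in the E15.5 cells. The globin genes were set aside as likely blood RNA. Of 15 progenitor and Muller glia genes tested none was called, and the median was 0.00. Of 26 measured, P0 cells detected 1 to 5 and E15.5 cells 2 to 7. The summed signal of 8 defining markers was 1629 to 11158 in the P0 cells against 10013 to 31290 in the E15.5 cells, which overlapped. The cyclin gene Ccnd1 was the brightest of the 8, at 13.16 in P0 cell C6 and the floor in the other P0 cells, against 12.89, 13.07 and 14.87 in the E15.5 cells. Dkk3 leaned the other way, at 13.93, 12.41, 8.51 and 11.86 in the P0 cells, against 8.96, 7.64 and 13.53 in the E15.5 cells. The progenitor factor Sox2 was at the floor in all 7 cells. Whether the blood or progenitor transcripts have a part in the differences below was not tested.

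**Figure D1:**
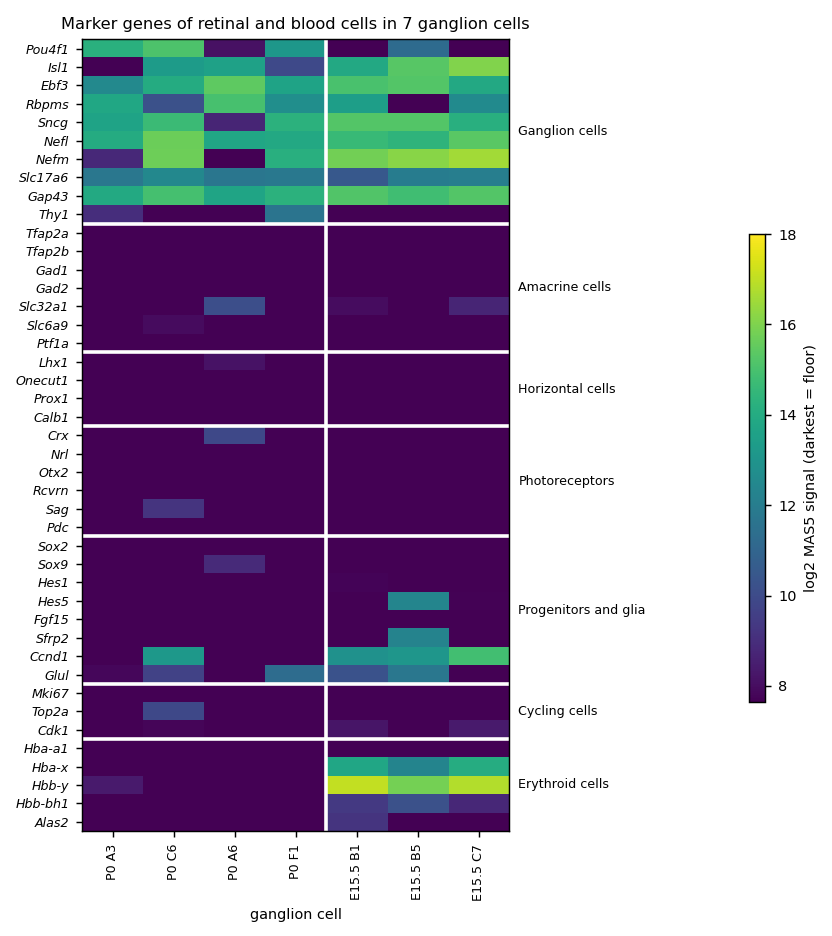
Levels (log2 MAS5 signal, colour) of marker genes in rows and the 7 ganglion cells in columns, P0 left of E15.5, the darkest colour being the floor of 7.64. The ganglion markers Nefl and Gap43 are high in every cell, whereas others, such as Rbpms and Sncg, are undetected in some. The amacrine, horizontal and photoreceptor markers drawn here are undetected apart from Slc32a1 in P0 cell A6. Hbb-y stands at 15.82 to 17.05 in the E15.5 cells alone.

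In all, 296 of 7184 genes (4.12%) were called higher at P0 and 134 (1.87%) were called lower, 131 of them without globins. Differences leaned upward: the median over all genes tested was 0.57, with 4537 genes positive, 2453 negative and 194 at the floor in every one of the 7 cells. After quantile normalisation that median was 0.19, so list medians are read against the median of all genes. The genes called higher were mostly at the floor at E15.5: 170 of 296 lay there in all 3 E15.5 cells, and 163 were detected in all 4 P0 cells. Fewer of the genes called lower were at the floor throughout P0: 12 of 134 lay there in all 4 P0 cells, and 121 were detected in all 3 E15.5 cells. A signal at the floor does not show that a gene was silent. The E15.5 cells detected 19.9% to 32.9% of the genes tested, against 29.5% to 57.3% in the P0 cells. Fewer cells make non-overlap easier, and the genes called higher numbered 487 without P0 cell C6, 599 without A6, 499 without E15.5 cell B1 and 474 without B5. The genes called lower numbered 296 without E15.5 cell B1, 269 without B5 and 363 without C7. Without C7 the genes called higher numbered 373, so the excess of higher calls nearly vanished. Of the genes called, 247 of 296 higher and 106 of 134 lower were called whichever 1 of the 7 cells was left out.

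The 20 largest differences toward P0 belonged to genes of varied roles. Dnm1l, the dynamin-like GTPase that divides mitochondria and peroxisomes, led the list at 14.05, 14.56, 16.24 and 12.97 in P0 cells A3, C6, A6 and F1, against the floor in E15.5 cells B1, B5 and C7. Its difference was at least 6.81. Snhg11, a long noncoding RNA gene of neurons, was at 14.37, 13.71, 15.62 and 13.87 in the P0 cells, against the floor in all E15.5 cells. Neither gene overlapped between the stages.

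Ddah1, which breaks down an inhibitor of nitric oxide synthase, was at 13.82, 13.87, 13.49 and 14.33 in the P0 cells and at the floor in all E15.5 cells. The P0 cells lay within 1 log2 unit of each other for this gene. Rit2, a small GTPase of neurons, was at 13.36, 14.08, 14.71 and 12.66 in the P0 cells, against the floor in all E15.5 cells. The glutathione transferase genes Gstm5 and Gstp1, whose products conjugate glutathione to reactive compounds, did likewise. Gstm5 was at 13.76, 13.73, 13.51 and 13.19 in the P0 cells, and Gstp1 at 12.08, 14.38, 14.28 and 13.35, against the floor for both genes in all E15.5 cells.

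Receptor and adhesion genes were also among the 20 largest. Gabbr1, a subunit of the metabotropic GABA receptor, was at 13.66, 13.18, 13.80 and 12.54 in the P0 cells, against 7.64, 8.58 and 7.64 in the E15.5 cells. Ptprd, a receptor tyrosine phosphatase that organises synapses, was at 13.00, 13.43, 13.79 and 12.06 in the P0 cells and at the floor in the E15.5 cells. Sphkap, an anchoring protein for protein kinase A, was at 14.11, 14.26, 11.23 and 12.90 in the P0 cells and at the floor in the E15.5 cells. All 3 genes were detected in every P0 cell and in no E15.5 cell. Sphkap was also at the floor in all 6 earlier ganglion cells (E12.5 to E14.5) and in all 5 P0 amacrine cells of the series.

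Among the rest of the 20, Cpsf6 (6.03) acts in cleavage and polyadenylation of messenger RNA, Tnks2 (6.0) is a tankyrase, Psme1 (5.74) is a proteasome activator subunit, Dlg5 (5.75) is a scaffold protein, Slain1 (5.58) binds growing microtubule ends, and Slc25a36 (5.71) carries nucleotides into mitochondria. C1d (5.81) is a cofactor of the RNA exosome, Ndufaf4 (5.40) an assembly factor of respiratory complex I, Tax1bp1 (5.32) an autophagy receptor and Rnf115 (5.29) a ubiquitin ligase, and Zc2hc1a (5.27) completed the list. All 20 were called after quantile normalisation. They were also called whichever 1 cell was left out, which differences of this size make almost certain. Of the 20, 17 had several probe sets; a second one differed the same way by more than 1 for 9 of them, the other 8 rested on a single probe set, and none had a probe set that went the opposite way. With the mean over a gene's probe sets, 14 of the 20 were called, and Dnm1l, Ddah1, Cpsf6, Dlg5, Ptprd and Tax1bp1 were not.

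The 20 largest differences toward E15.5, with globins set aside, likewise belonged to genes of varied roles. Stk39, a kinase that controls cation-chloride cotransporters, was at 7.64, 7.64, 7.64 and 11.75 in P0 cells A3, C6, A6 and F1, against 14.44, 14.48 and 14.71 in E15.5 cells B1, B5 and C7. The homeobox gene Meis1, a cofactor of Hox and Pax proteins, was at 7.64, 7.64, 9.73 and 12.28 in the P0 cells, against 14.79, 14.33 and 15.14 in the E15.5 cells. P0 cell F1 was the highest P0 cell for both genes and still lay below every E15.5 cell.

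Grb10, an imprinted adaptor that restrains insulin receptor signalling, was at the floor in all 4 P0 cells, against 13.56, 12.42 and 12.98 in the E15.5 cells. It was detected in all 6 earlier ganglion cells, at 10.48 to 14.26. Kif3a, a motor subunit of kinesin-II, was at 12.45, 7.64, 7.64 and 11.36 in the P0 cells, against 14.41, 14.67 and 14.97 in the E15.5 cells. Rhoa, a GTPase of actin contraction, was at the floor in all P0 cells, against 11.92, 11.29 and 13.33 in the E15.5 cells. Kif3a was detected in P0 cells A3 and F1 and Rhoa in no P0 cell.

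The remaining genes of the 20 were Ttc33 (-5.66), Zfp410 (-5.42), Scmh1 (-5.35), Rps29 (-5.20), Ndufb9 (-5.05), Bach1 (-5.02), Rc3h2 (-4.88), Tmem50b (-4.87), Phrf1 (-4.82), Selenoh (-4.76), Dhx9 (-4.69), Nefm (-4.57), Pmvk (-4.57), Tchp (-4.56) and Hax1 (-4.53). Scmh1 is a Polycomb group protein, Bach1 a repressor of haem-responsive genes, Dhx9 an RNA helicase, Rc3h2 a protein that marks messenger RNAs for decay and Pmvk an enzyme of the mevalonate pathway. All 20 were called whichever 1 cell was left out, which differences of this size make almost certain. After quantile normalisation 18 were called, Nefm and Hax1 being the exceptions. With the mean over probe sets 12 were called, and Stk39, Meis1, Scmh1, Grb10, Kif3a, Rc3h2, Dhx9 and Hax1 were not. Of the 20, 14 had several probe sets, and 1 gene, Kif3a, had a probe set that went the opposite way.

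**Figure D2:**
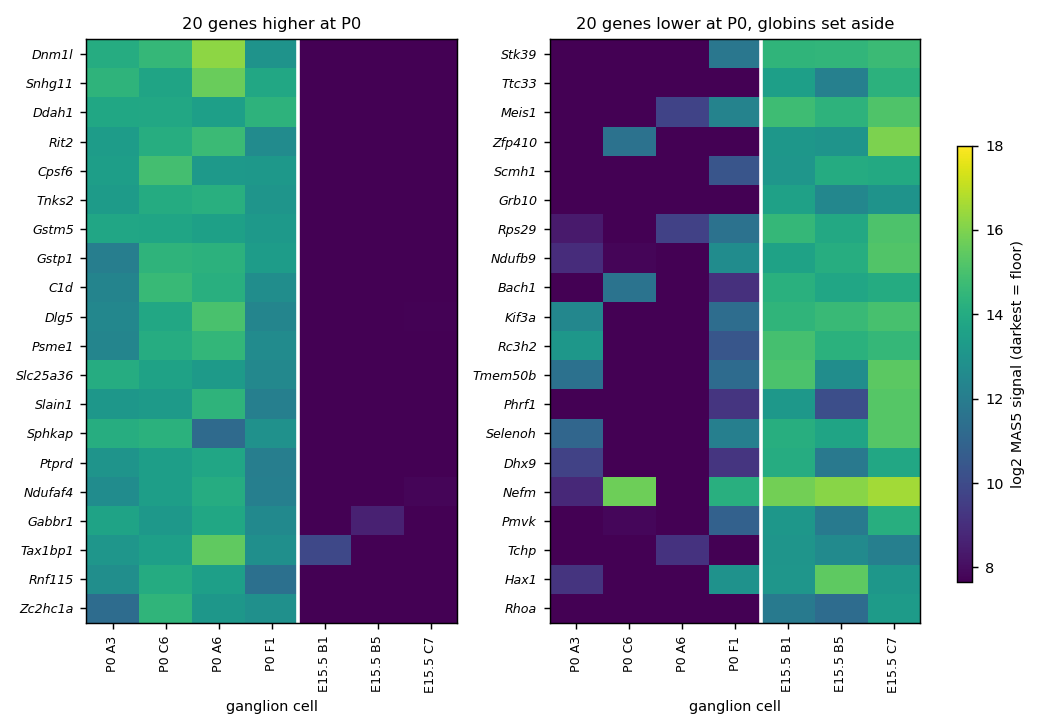
Levels (log2 MAS5 signal, colour) of the 20 genes called higher at P0 with the largest differences (left panel) and the 20 called lower, globins set aside (right panel), in the 4 P0 and 3 E15.5 ganglion cells. On the left nearly all E15.5 cells are at the floor, whereas on the right P0 cells A3 and F1 often hold a level between the floor and that of the E15.5 cells.

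Ribosomal protein genes, which encode the structural proteins of the cytoplasmic ribosome, were the list with the most calls. Of 37 tested, 17 were called lower at P0 and none higher, against 1.87% of all genes called lower. Their median difference was -2.34, against 0.57 over all genes, and 36 of 37 were negative. In 24 of them every P0 cell lay below every E15.5 cell, against 2.53% of all genes. The mean level of the list was 11.89, 12.55, 11.03 and 12.94 in P0 cells A3, C6, A6 and F1, against 13.95, 14.30 and 15.09 in E15.5 cells B1, B5 and C7. The stages did not overlap, and E15.5 cell C7, with the fewest genes detected, had the highest mean, while P0 cell F1, with the most, had the highest mean of P0. After quantile normalisation, and with the mean over probe sets, 11 were called lower. Without P0 cell A6, 13 were called lower.

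Single members show the size of the shift. Rpl13a was at 12.52, 12.68, 9.02 and 14.02 in the P0 cells, against 15.90, 15.93 and 16.68 in the E15.5 cells. Rps26 was at 9.23, 9.03, 9.37 and 11.87 in the P0 cells, against 13.38, 13.98 and 14.81 in the E15.5 cells. Rps10 was at 12.86, 14.00, 11.36 and 13.70 in the P0 cells, against 15.76, 15.30 and 15.81 in the E15.5 cells. None of the 3 overlapped between stages, and the P0 cells stayed detected for Rps10. Rps29, the member with the largest difference, was at 8.38, 7.64, 9.66 and 11.54 in the P0 cells, against 14.53, 13.88 and 15.11 in the E15.5 cells. Members without a call included Rpl4 (-0.65), Rps7 (-0.96) and Rps2 (-0.02). The probe sets of these genes can also bind related sequences, such as processed pseudogenes. For the 14 genes measured by an x-type or s-type probe set, the array's marks for shared sequence, the median was -2.58 and 9 were called lower, and for the other 23 it was -1.90 and 8 were called lower.

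**Figure D3:**
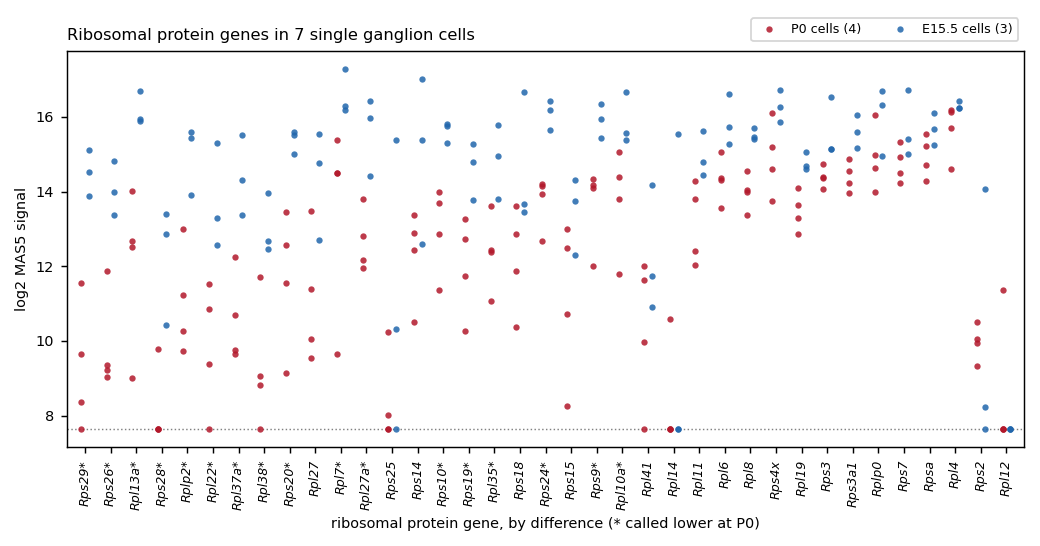
Level (log2 MAS5 signal) of each of 37 ribosomal protein genes in the 4 P0 cells (red) and the 3 E15.5 cells (blue), ordered by difference, with the floor as a dotted line and an asterisk for the 17 called lower at P0. E15.5 cells lie above the P0 cells for most genes, and genes at the right end, such as Rpl4 and Rps2, show little difference.

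Messenger RNAs for ribosomal proteins start at a run of pyrimidines, the TOP motif, through which their translation is controlled, and many of their promoters bind Ets-family factors. The stretches from 85 bases before to 15 bases after the start are given below, to let the start regions be compared. Called members were taken in order of their difference, and the first few with a searched motif in this window are shown. Members further down that order were not looked at for this. They come from RefSeq (GRCm38.p6), and capitals mark CTTTCC, a pyrimidine run, or CCGGAAG, an Ets core. CTTTCC is marked wherever it falls and need not be the TOP motif: in Rpl38 it lies at the start, in Rpl22 before it and in Rpl13a and Rps10 after it.
Rpl13a, chr7:45128731-45128830, minus strand: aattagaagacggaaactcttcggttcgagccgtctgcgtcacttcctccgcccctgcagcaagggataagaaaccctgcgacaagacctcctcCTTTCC
Rpl22, chr4:152325641-152325740, plus strand: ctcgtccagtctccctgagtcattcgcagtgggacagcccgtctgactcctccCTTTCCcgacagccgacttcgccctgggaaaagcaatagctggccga
Rpl38, chr11:114668495-114668594, plus strand: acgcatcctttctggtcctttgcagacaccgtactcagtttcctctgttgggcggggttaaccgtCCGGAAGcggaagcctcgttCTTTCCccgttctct
Rps10, chr17:27635230-27635329, minus strand: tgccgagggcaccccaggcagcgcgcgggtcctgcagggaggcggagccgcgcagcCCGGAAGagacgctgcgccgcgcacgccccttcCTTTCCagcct

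Both motifs were searched on both strands of 300 bases around the start, and the letters CC at the end of one and the start of the other can be shared. CTTTCC was counted wherever it fell in them, so its shares are not shares of TOP motifs. CTTTCC was in 16 of 32 promoters of the ribosomal protein genes tested (50.0%), against 26.3% of all 27025 promoters. Among those called lower it was in 8 of 14, and among those not called in 8 of 18. CCGGAAG was likewise in 16 of 32 (50.0%), against 9.12% of all promoters and 20.8% of those of the genes tested, and in 6 of 14 called and 10 of 18 uncalled members. The shares in called and uncalled members rest on few genes.

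Other genes of the translation machinery had few calls. Of 17 genes tested for translation factors and other TOP messenger RNAs, a list drawn up after the values were seen, 1 was called lower and 1 higher. That is 5.88% each way, against 1.87% of all genes called lower and 4.12% called higher, and the median was -0.20. Fau, which encodes a ribosomal protein fused to a ubiquitin-like domain, was at 11.15, 11.95, 8.57 and 11.99 in the P0 cells, against 14.55, 14.18 and 14.12 in the E15.5 cells. Pabpc1, the cytoplasmic poly(A)-binding protein, went the other way, at 12.57, 13.05, 11.58 and 11.72 in the P0 cells and at the floor in all E15.5 cells. Eef2, the translocation factor of elongation, was at 13.73, 14.10, 12.68 and 13.12 in the P0 cells, against 14.53, 15.07 and 15.81 in the E15.5 cells. Eef2 did not overlap but fell short of a 4-fold difference. Of 62 genes for mitochondrial ribosomal proteins, 2 (Mrpl55 and Mrpl15) were called higher (3.23%, against 4.12% of all genes), with a median of 0.54, near that of all genes.

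Genes of the growing axon were among the brightest in both stages and lower at P0 in part. Of 39 growth cone and microtubule genes tested, 3 were called lower at P0 (7.69%, against 1.87% of all genes) and none higher, and the median was -0.79. In 10 of them every P0 cell lay below every E15.5 cell, against 2.53% of all genes. After quantile normalisation the median was -0.01. The thymosin gene Tmsb10, whose product holds actin monomers, was at 13.28, 14.32, 11.67 and 15.01 in the P0 cells, against 16.57, 16.55 and 17.01 in the E15.5 cells. Tmsb4x, its relative, was at 14.00, 15.52, 12.84 and 15.22 in the P0 cells, against 16.10, 16.38 and 16.93 in the E15.5 cells. Neither overlapped, but the Tmsb10 call ended with the mean over probe sets, and the Tmsb4x call after quantile normalisation and without P0 cell A3, P0 cell A6 or E15.5 cell C7. Actb, cytoplasmic actin and a member of the housekeeping list, was at 13.93, 14.18, 13.60 and 14.17 in the P0 cells, against 16.11, 16.05 and 16.90 in the E15.5 cells. It was called lower, with little spread within a stage, but not after quantile normalisation or with the mean over probe sets. Of 15 housekeeping genes tested, 2 were called lower (13.3%) and none higher, and 5 lay lower at P0 without overlap. Their median was -0.55, so a drop of this size was not particular to growth cone genes.

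Some cytoskeletal genes went the other way without a call. Kif5a, the neuronal kinesin heavy chain that carries neurofilaments, was at 14.44, 15.40, 13.60 and 13.81 in the P0 cells, against 13.65, 7.69 and 7.64 in the E15.5 cells. E15.5 cell B1 overlapped the P0 range. Map1b, a microtubule-associated protein of growing axons, was at 12.18, 7.64, 15.14 and 10.96 in the P0 cells and at the floor in the E15.5 cells, so P0 cell C6 tied with E15.5.

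Intermediate filament genes were uneven. Nefm, the medium neurofilament, was at 8.83, 15.72, 7.64 and 14.19 in P0 cells A3, C6, A6 and F1, against 15.78, 16.16 and 16.58 in the E15.5 cells. P0 cell C6 nearly reached the lowest E15.5 cell, and A3 and A6 did not detect the gene. Vim, the filament of immature neurons and glia, was at 7.64, 12.24, 10.31 and 14.98 in the P0 cells, against 15.41, 16.42 and 15.22 in the E15.5 cells. All 3 probe sets of Vim went the same way. Both calls ended after quantile normalisation. Ank2, an ankyrin of the axon membrane, was at 13.78, 13.19, 13.13 and 12.79 in the P0 cells, against 14.10, 13.13 and 16.11 in the E15.5 cells, which overlapped.

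Ganglion and young-neuron transcription factors were lower at P0 in a few members. Of 49 retinal transcription factor genes tested, 3 (Isl1, Meis1 and Sox11) were called lower (6.12%, against 1.87% of all genes) and none higher, with a median of 0.00. Isl1, a LIM-homeodomain factor of ganglion cells, was at 7.64, 13.33, 13.56 and 9.93 in the P0 cells, against 13.88, 15.31 and 16.04 in the E15.5 cells. Sox11, a factor of newly born neurons, was at 12.79, 8.61, 7.64 and 12.85 in the P0 cells, against 14.13, 15.06 and 14.37 in the E15.5 cells. All 6 probe sets of Sox11 differed this way, and its call ended after quantile normalisation. Isl1 was undetected in P0 cells A3 and F1, and Sox11 in C6 and A6.

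Other factors of these lists varied without a stage boundary. Pou4f1, a POU-domain factor of ganglion cells, was at 14.20, 15.11, 8.10 and 13.11 in the P0 cells, against 7.64, 11.28 and 7.64 in the E15.5 cells. P0 cell A6 lay within the E15.5 range, so the gene was not called. Ebf3, a helix-loop-helix factor of the ganglion lineage, was at 12.53, 14.01, 15.44 and 13.64 in the P0 cells, against 15.04, 15.21 and 13.88 in the E15.5 cells. Atoh7, the factor that makes progenitors competent for the ganglion fate, did not exceed 9.82 in any of the 7 cells.

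Of 21 genes of immature neurons and neurogenesis, 3 were called lower (14.3%, against 1.87% of all genes) and none higher, with a median of -0.34. Besides Sox11 they were Igfbpl1 and the cell cycle inhibitor gene Cdkn1b. Igfbpl1, an insulin-like growth factor binding protein of young ganglion cells, was at 7.64, 7.83, 7.64 and 7.64 in the P0 cells, against 12.95, 10.13 and 10.76 in the E15.5 cells. Cdkn1b was at 11.75, 9.77, 7.64 and 9.50 in the P0 cells, against 13.57, 13.31 and 11.93 in the E15.5 cells. Igfbpl1 was undetected in every P0 cell, whereas Cdkn1b stayed detected in A3.

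Synaptic vesicle genes leaned toward P0. Of 41 tested, 5 were called higher (12.2%, against 4.12% of all genes) and 1 lower, with a median of 1.15 against 0.57 for all genes. The mean level of the list was 11.31, 11.32, 10.18 and 11.25 in P0 cells A3, C6, A6 and F1, against 10.02, 10.40 and 9.20 in the E15.5 cells. P0 cell A6 lay between E15.5 cells B1 and B5, so the stages overlapped in the list's mean. Syt4, a synaptotagmin whose transcription follows neuronal activity, was at 15.40, 15.31, 14.03 and 14.41 in the P0 cells, against 12.16, 11.93 and 7.64 in the E15.5 cells. Pclo, a giant scaffold of the presynaptic active zone, was at 12.62, 13.56, 14.19 and 12.14 in the P0 cells, against 7.64, 11.93 and 7.93 in the E15.5 cells. E15.5 cell B5 came close to the lowest P0 cell for Pclo and stayed well below it for Syt4.

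The other called members act in vesicle fusion and recycling. Napb, the neuronal SNAP protein that helps take SNARE complexes apart, was at 13.89, 11.93, 14.63 and 10.97 in the P0 cells and at the floor in the E15.5 cells. Sh3gl2, an endophilin that bends membrane at sites of endocytosis, was at 12.90, 14.17, 12.57 and 11.82 in the P0 cells and at the floor in the E15.5 cells. Synj1, the phosphatase that strips the clathrin coat, was at 12.94, 11.97, 11.48 and 12.35 in the P0 cells, against 11.09, 8.27 and 7.94 in the E15.5 cells. Endophilin and synaptojanin are partners in uncoating, and both genes were detected in every P0 cell, whereas E15.5 cell B1 alone detected Synj1. Rab3a, the GTPase of synaptic vesicles, was the member called lower, at 12.42, 11.90, 11.20 and 10.99 in the P0 cells, against 13.49, 13.65 and 14.98 in the E15.5 cells. Its call ended without E15.5 cell C7, and those of Napb and Synj1 with the mean over probe sets.

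Guidance, channel, receptor and calcium genes were called about as often as genes at large, of which 4.12% were called higher. Of 41 axon guidance and adhesion genes, 2 were called higher (4.88%) and none lower, with a median of 1.04 against 0.57 for all genes. Both were plexins, which are semaphorin receptors. Plxna1 was at 12.42, 11.83, 13.42 and 12.56 in the P0 cells, against 11.35, 7.64 and 8.12 in the E15.5 cells. Plxna3 was at 11.54, 10.93, 13.58 and 11.67 in the P0 cells, against 10.85, 8.08 and 7.64 in the E15.5 cells. The P0 cells lay above E15.5 cell B1 by a narrow margin in both genes, both calls ended with the mean over probe sets, and that of Plxna3 also after quantile normalisation. Cntn2, an axonal adhesion molecule, was at 13.21, 7.64, 7.64 and 10.34 in the P0 cells, against 9.22, 14.04 and 16.41 in the E15.5 cells, which overlapped.

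Of 22 voltage-gated channel genes, 1 was called higher (4.55%), and the median was 0.64, near that of all genes. The gene called was Kcnd3, a potassium channel of A-type currents, at 13.48, 12.57, 11.44 and 12.71 in the P0 cells and at the floor in the E15.5 cells. Scn9a, a sodium channel gene, was at 11.54, 7.64, 15.02 and 11.55 in the P0 cells and at the floor in the E15.5 cells. Kcnd3 was detected in all 4 P0 cells, whereas Scn9a was at the floor in C6 and so was not called. The Kcnd3 call rested on 1 of its 4 probe sets. Of 22 receptor and chloride transporter genes, with a median of 0.90, 1 was called higher (4.55%): Gria2, an AMPA receptor subunit, at 10.97, 11.94, 13.94 and 11.50 in the P0 cells, against 10.76, 10.84 and 7.64 in the E15.5 cells. That call ended without P0 cell A6 or E15.5 cell C7, after quantile normalisation and with the mean over probe sets. Chrna3, the nicotinic receptor subunit of early ganglion cells, was at 7.64, 8.52, 7.64 and 13.06 in the P0 cells, against 12.76, 14.46 and 14.69 in the E15.5 cells. P0 cell F1 alone lay in the E15.5 range.

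Secretory and calcium genes held bright members on both sides. Cpe, a processing enzyme of neuropeptides, was at 15.59, 15.74, 15.48 and 15.18 in the P0 cells, against 14.38, 13.32 and 7.64 in the E15.5 cells. Without E15.5 cell C7 it was no longer 4-fold different. Chgb, a granin of dense-core vesicles, was at 12.92, 7.64, 12.79 and 12.22 in the P0 cells, against 14.17, 13.73 and 16.05 in the E15.5 cells. Of 25 calcium-binding and signalling genes, 1 was called higher (4.0%), with a median of 1.00. Ppp3cb, a catalytic subunit of calcineurin, was at 14.34, 14.60, 13.19 and 13.17 in the P0 cells, against 12.30, 12.43 and 7.64 in the E15.5 cells. That call also ended without E15.5 cell C7. Calb2, the calcium buffer calretinin, was at 14.29, 13.31, 8.30 and 14.49 in the P0 cells, against 7.64, 13.25 and 7.64 in the E15.5 cells, which overlapped through P0 cell A6.

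Energy genes did not move as a block. Of 68 oxidative phosphorylation genes tested, 4 were called lower (5.88%, against 1.87% of all genes) and none higher, with a median of -0.10. Ndufb9, a subunit of complex I, was at 8.96, 7.78, 7.64 and 12.67 in the P0 cells, against 13.63, 14.09 and 15.20 in the E15.5 cells. The others called lower were Ndufs4 (-2.23), also of complex I, and the ATP synthase genes Atp5g2 (-3.11) and Atp5o (-2.75). The Ndufs4 call ended without P0 cell C6 or E15.5 cell C7, and the Atp5o call without P0 cell A6. With the mean over probe sets the calls of Ndufs4, Atp5g2 and Atp5o ended, and after quantile normalisation those of Ndufs4 and Atp5o. Ndufs1 (3.80), Uqcrc1 (3.40) and Uqcrc2 (3.27) had large differences the other way, each with an overlapping P0 cell at the floor. Of 15 glycolysis genes, the lactate dehydrogenase genes Ldha (-2.90) and Ldhb (-2.52) were called lower (13.3%, against 1.87% of all genes). Ldhb was at 11.52, 10.34, 12.71 and 12.12 in the P0 cells, against 13.86, 13.27 and 15.46 in the E15.5 cells. The Ldha call ended without P0 cell A6 and the Ldhb call without E15.5 cell C7.

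Survival, growth-capacity and timing genes had no call. Of 27 genes of neurotrophin signalling, survival and cell death, none was called, and the median was 0.02. Apaf1, the core of the apoptosome, was at 7.64, 11.74, 13.15 and 8.56 in the P0 cells and at the floor in the E15.5 cells, with P0 cell A3 also at the floor. Of 9 Kruppel-like factor genes none was called. Klf13 was at 10.21, 11.75, 7.64 and 8.27 in the P0 cells and at the floor in the E15.5 cells, so P0 cell A6 tied with E15.5. Among 6 developmental timing genes the median was 1.43. Thra, a thyroid hormone receptor, was at 14.33, 14.64, 9.75 and 14.39 in the P0 cells, against 7.64, 14.40 and 8.01 in the E15.5 cells. E15.5 cell B5 matched the higher P0 cells. Fos, an immediate early gene, was at 13.38, 13.51, 12.86 and 7.64 in the P0 cells and at the floor in the E15.5 cells, so P0 cell F1 tied with E15.5.

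**Figure D4:**
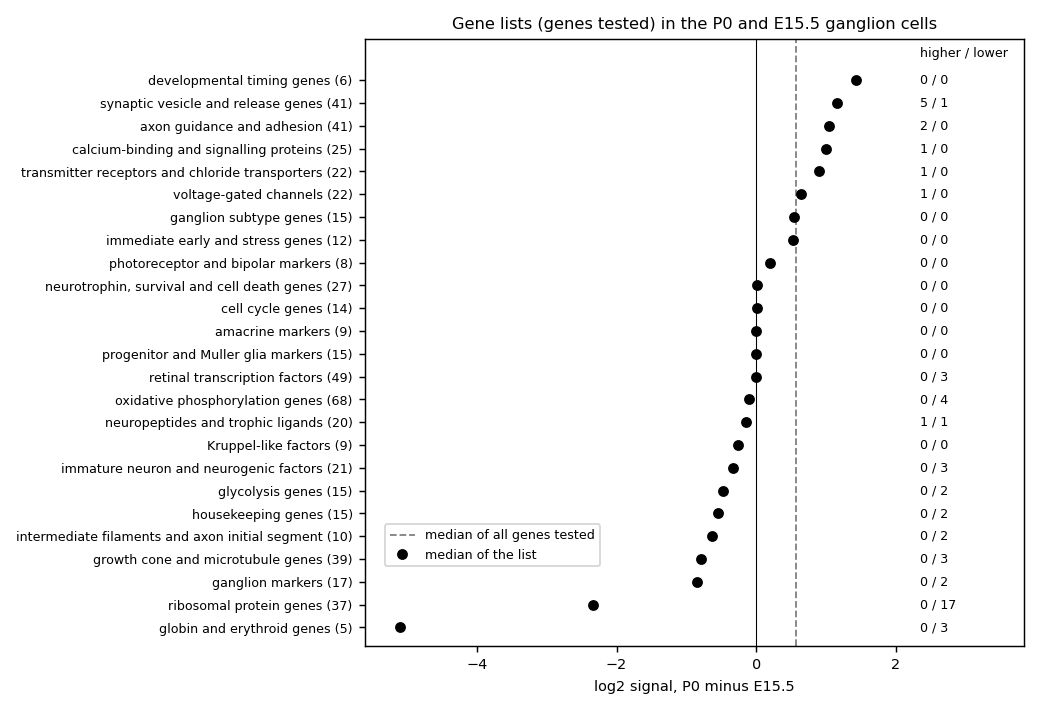
Median difference in log2 signal (P0 minus E15.5) of each gene list with at least 5 genes tested, with the number tested in brackets, the median of all genes (0.57) as a dashed line, and the numbers of members called higher and lower at P0 at the right. Ribosomal protein genes lie at -2.34 with 17 members lower, and synaptic vesicle genes at 1.15 with 5 higher and 1 lower.

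The 13 ganglion cells of the series also include 3 cells of E12.5, 1 of E13.5 and 2 of E14.5, which show where earlier levels stood. Since the called genes were picked for being low or high at E15.5, these values are given side by side and compared no further. Of all 7184 genes tested, the 6 earlier cells detected 35.1% to 52.1%. Of the 296 genes called higher at P0, the 6 earlier cells detected 124 to 186, P0 cells 236 to 258 and E15.5 cells 7 to 29. The 5 P0 amacrine cells detected 95 to 190. Of the 134 genes called lower, the earlier cells detected 90 to 113, P0 cells 36 to 92 and E15.5 cells 129 to 131, and P0 amacrine cells detected 58 to 99.

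Genes differed in this respect. Snhg11 was at 14.22, 11.34 and 13.52 in the E12.5 cells, 7.64 in the E13.5 cell and 7.64 and 9.29 in the E14.5 cells, so it was detected in part of the earlier cells. Dnm1l was detected in 4 of the 6 earlier cells and in all 5 P0 amacrine cells. Rit2, by contrast, was detected in 1 of the 6 earlier cells. Syt4 was detected in 5 of the 6 earlier cells, at 11.58 to 13.78. For Rtn1, a reticulon of the neuronal endoplasmic reticulum, the level was 13.74, 14.23, 14.19 and 13.86 in the P0 cells, against 9.21, 11.40 and 7.88 at E15.5, and 12.38 to 13.92 in the earlier cells. Ribosomal protein genes had mean levels of 11.03 to 12.94 in the P0 cells, 13.95 to 15.09 in the E15.5 cells, 13.00 to 13.98 in the earlier cells and 11.40 to 13.31 in the P0 amacrine cells. For this list every P0 ganglion cell lay below every embryonic ganglion cell, by little for P0 cell F1 and the E13.5 cell, and the P0 ganglion and P0 amacrine cells overlapped.

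**Figure D5:**
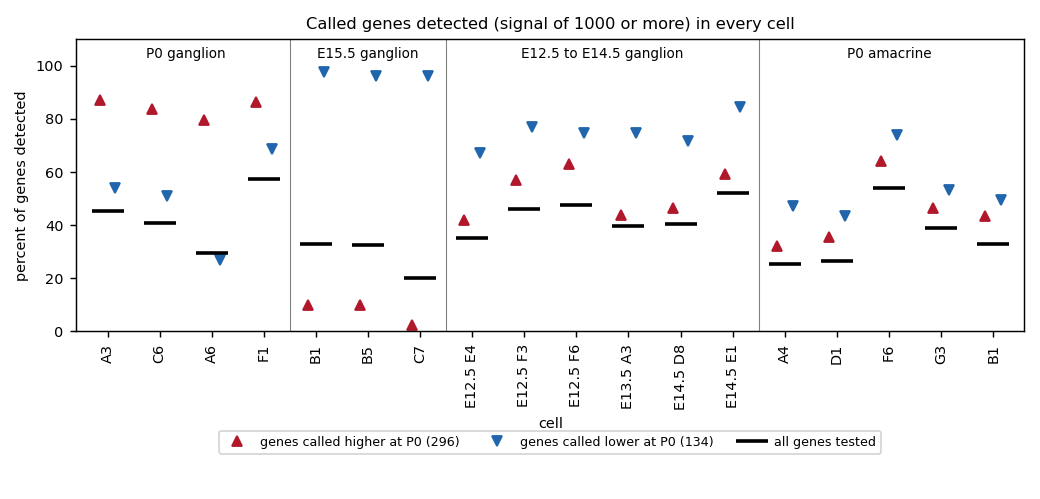
Percent of the 296 genes called higher at P0 (upward triangles) and of the 134 called lower (downward triangles) detected at a signal of 1000 or more in each of 18 cells, with the percent of all 7184 genes tested as a black bar. The P0 and E15.5 ganglion cells were used for the call; the 6 earlier ganglion cells and 5 P0 amacrine cells were not. For the genes called higher these 11 cells lie between the stages. For those called lower the earlier ganglion cells lie at 67.2% to 84.3% and the amacrine cells at 43.3% to 73.9%, against 26.9% to 68.7% in the P0 ganglion cells.

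The 4 P0 cells held different sets of transcription factors. Of 32 retinal transcription factors detected in part of the P0 cells, Sox4 had the largest spread (SD 3.63 over the 4 cells), at 15.29, 14.89, 7.70 and 14.64. Nr2f1, a nuclear receptor, was at 7.64, 7.88, 15.15 and 11.90 (SD 3.58), and Irx6, an Iroquois factor, at 13.86, 7.64, 7.78 and 13.25 (SD 3.38). Cell A6 thus held Nr2f1 without Irx6 or Sox4, and cell A3 held Irx6 without Nr2f1. Satb1, a factor of direction-selective ganglion subtypes, was at 13.84, 12.49, 7.64 and 12.39. Meis2 was detected in C6 alone, at 13.58, and Neurod1 in F1 alone, at 12.81.

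The E15.5 cells were as uneven, each with factors of its own among the 21 detected in part of them. Cell C7 held Nr2f2 at 14.93, Bcl11b at 14.25 and Pbx3 at 14.56, against 7.64 to 8.63 in B1 and B5. Cell B1 held Irx3 at 14.49 and Vax2, a factor of ventral retina, at 13.21, with B5 and C7 at the floor for both. Irx2 was at 7.64, 11.34 and 14.63 in B1, B5 and C7. Genes named here were ranked by this spread, so their unevenness is a description, and with 1 array a cell the array's own error was not measured.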

How the data were processed

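Each of the 22 cells was hybridised alone to an Affymetrix mouse 430 2.0 array. Per the series' design text and the submitters' processing notes, the authors computed the deposited signal intensity with MAS5. The values show a 2% trimmed mean of 500 on 21 arrays, and P0 amacrine cell B1 was multiplied by 27.6 to match. Not given in the sources used here are the build, detection calls, scanner settings and batches.

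Of 45101 probe sets, 34958 carried a single gene symbol. Symbols were taken from the platform annotation and updated by gene number through RefSeq. Each of 18194 genes was represented by its probe set with the highest mean log2 signal over the 22 cells. Intensities under 200 were set to 200 before the log2 step, and a gene was tested where 3 or more of the 22 cells reached 1000, which left 7184. P0 minus E15.5 is a difference of means over cells. With 1 sample a stage no p-value or standard error was computed. The number of arrays limits the precision, and 1 array per cell does not separate biological from amplification error. Over the 21 pairs that the 7 arrays form, Pearson's r reached at most 0.66, so none is a copy of another.

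Genes were named from the 20 called with the largest difference in each direction (globins set aside) and all tested ganglion markers. They were also taken from up to 4 members with the largest difference and the called members of each list. For variation they came from the 10 largest SDs per stage among transcription factors. Not every gene that met these rules is printed. The cells, lists and named genes were chosen with earlier results of these data known, and the lists of translation factors, mitochondrial ribosome, mitochondrial dynamics, endoplasmic reticulum shape, cholesterol synthesis and long noncoding RNAs, and both promoter motifs, after the values were seen. Alternatives covered the floor, probe set choice, filters, normalisation, averaging, the size of difference and each cell left out. Computation used Python 3.11.15, numpy 2.4.6, pandas 2.3.3, scipy 1.17.1 and matplotlib 3.10.9.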

Additional observations from a re-analysis of the deposited data

Results flagged for a closer look

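Among the 4 P0 cells, 1 cell stood apart from the other 3 in 49 of 211 levels examined (23.2%), by a gap that fills most of the range. The levels examined include genes named for their spread among these same cells or for a large difference. No chance rate therefore applies to this share. In 24 of the 49 the other cells all lay at the floor, so a gene above the floor in a single cell is enough. Groups of 3, such as E15.5, cannot be examined this way.

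Cell A6, with the fewest genes detected at P0, was the lowest cell for the mean level of synaptic vesicle genes (10.18), with the other P0 cells at 11.25 to 11.32, and of developmental timing genes (8.23), with the others at 10.23 to 10.50. It was also the lowest cell for Ppib (7.64), Rpl7 (9.65), Rps9 (12.00), Rxrg (7.64), Sox4 (7.70), Thra (9.75) and Uqcrc1 (7.64). Sox4 was at 14.64 to 15.29 in the other 3 cells, and Rpl7 at 14.49 to 15.39. Cell A6 was the highest cell for the mean level of vascular and immune genes (8.37), a list of 2 tested genes of which Col4a2 (9.11) was above the floor there. It was highest too for Atoh7 (9.82), Crx (9.88), Eya2 (8.51), Sema6d (8.09) and Tchp (9.15), all below the level called detected.

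Cell C6 was the highest for the mean level of cell cycle genes (10.32), with the others at 8.49 to 8.63. It was highest for Ccnd1 (13.16), Insm1 (12.72), Meis2 (13.58) and Zfp410 (11.53), whose levels in the other 3 cells were at the floor. It led as well for Cpsf6 (14.89), Nefl (15.68) and Slc17a6 (12.46), which all 4 cells detected, and for Igfbpl1 (7.83), Megf10 (7.98), Sag (9.20) and Ube2c (9.62), which none detected. Chgb (7.64) was lowest in this cell, with the others at 12.22 to 12.92.

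Cell F1, with the most genes detected, was the highest for Cacna2d1 (11.89), Chrna3 (13.06), Dnajb1 (10.95), Klf16 (10.71), Neurod1 (12.81), Nr2f2 (11.81), Pmvk (10.87), Prkca (11.24), Rps26 (11.87), Scmh1 (10.39), Septin4 (11.48), Sp4 (11.29) and Stk39 (11.75), none of which the other 3 cells detected. It was highest for Hbb-b2 (9.55), Id3 (7.67), Phrf1 (9.24) and Rps28 (9.79) without reaching detection. Fos (7.64) was lowest in F1, with the others at 12.86 to 13.51. Cell A3 was the highest for Hbb-y (8.40), which was not detected, and Igf1r (11.30).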

How the results depend on the processing

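The counts of genes called were 296 higher and 134 lower at P0. With the mean over probe sets they were 181 and 83, since genes whose other probe sets lie at the floor fall out. Without P0 cell F1 and E15.5 cell C7 together 433 genes were called higher and 429 lower, 50.2% higher among the calls against 68.8% with all 7 cells. Without C7 alone 373 were called higher and 363 lower (50.7% higher), and without F1 alone 358 and 167 (68.2% higher). The excess of higher calls thus rested on E15.5 cell C7, the cell with the fewest genes detected. Leaving out each cell in turn gave 358 to 599 higher and 129 to 363 lower, fewer cells making non-overlap easier by construction. Under the other settings the counts were 216 to 391 higher and 90 to 156 lower, among them 244 and 156 after quantile normalisation. Of 3517 recomputed differences of named genes, 89 moved by more than the spread between cells, and no called gene changed sign. Leaving out 1 cell cannot move a difference by more than that spread, nor change the sign of a called gene. Changed filters on dim genes leave the values as they were. The small count therefore does not measure how the differences hold up under these settings. For lists the measure was another, the SD of the list's median level over the P0 cells. Of 473 recomputed list medians, 88 moved by at least that SD. Where every P0 cell had its list median at the floor there was no such spread, and even an unchanged median counted as moved. The median of ribosomal protein genes stayed between -2.64 and -1.79 and that of synaptic vesicle genes between 0.68 and 1.42, whereas those of growth cone (-0.79), glycolysis (-0.47), housekeeping (-0.55) and immediate early genes (0.52) came to -0.01, 0.04, 0.06 and -0.34 after quantile normalisation. No paired analysis was possible because each stage is 1 sample and the cell numbers pair nothing.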

Other observations

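Several genes of mitochondrial shape and transport were called higher at P0. Of 23 tested, 8 were called higher at P0 (34.8%, against 4.12% of all genes) and none lower, with a median of 1.82 against 0.57 for all genes, in a list drawn up after the values were seen and so no independent evidence. The members called include the fission genes Dnm1l, Fis1 and Mff. Fis1, an outer-membrane adaptor, was at 12.12, 12.36, 10.39 and 13.44 in P0 cells A3, C6, A6 and F1, against 8.75, 7.88 and 9.44 in E15.5 cells B1, B5 and C7. Mff, a receptor for the fission dynamin, was at 15.05, 15.16, 14.43 and 14.42 in the P0 cells, against 13.91, 13.17 and 7.64 in the E15.5 cells. Without E15.5 cell C7 Mff was not called. Immt, which shapes the cristae, was at 12.36, 10.48, 11.51 and 12.79 in the P0 cells and at the floor in the E15.5 cells. The remaining calls were Slc25a46 (3.02), Kifbp (2.94), Trak2 (2.72), an adaptor of mitochondria to kinesin, and Mtx2 (2.68). After quantile normalisation 4 of the 8 calls ended, those of Fis1, Slc25a46, Trak2 and Mtx2, and with the mean over probe sets those of Dnm1l, Kifbp and Trak2. The mean level of the list was 10.1, 10.8, 9.8 and 10.7 in the P0 cells, against 8.9, 8.4 and 8.1 in the E15.5 cells, and these 2 stages did not overlap. It was 8.8 to 10.6 in the 6 earlier ganglion cells and 9.2 to 10.3 in the 5 P0 amacrine cells. Both ranges overlapped that of the P0 ganglion cells, so the list was not lower than at P0 in all embryonic cells.

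Genes that shape the endoplasmic reticulum had calls on both sides. Of 17 tested, 4 were called higher at P0 (23.5%, against 4.12% of all genes) and 1, Lnpk (-2.96), lower, and the median was 0.69, near the 0.57 of all genes. Atl1, the atlastin that fuses tubules, was at 13.25, 11.32, 12.24 and 12.83 in the P0 cells and at the floor in the E15.5 cells. Reep1, a tubule-shaping protein, was at 11.97, 12.71, 14.44 and 13.31 in the P0 cells, against 7.64, 10.71 and 7.64 in the E15.5 cells, and Reep5 (5.00) and Rtn1 (4.51) were the other calls. Of 25 cholesterol and lipid synthesis genes tested, 6 were called lower (24.0%, against 1.87% of all genes) and none higher, with a median of -0.68. The mean level of the list overlapped between the stages, at 11.27 in P0 cell F1 against 11.19 in E15.5 cell C7. Sqle, squalene epoxidase, was at 11.85, 9.80, 11.00 and 12.19 in the P0 cells, against 13.18, 13.68 and 14.90 in the E15.5 cells. Insig1, the sterol sensor that retains SCAP, was at 10.84, 12.34, 7.64 and 10.79 in the P0 cells, against 13.07, 15.57 and 15.50 in the E15.5 cells. Pmvk, Nsdhl, Fads2 and Acsl3 were the others. Both lists were drawn up after the values were seen.

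Among 16 long noncoding RNA genes, Meg3, an imprinted transcript, was called higher besides Snhg11. It was at 14.73, 16.12, 16.89 and 14.68 in the P0 cells, against 13.73, 10.34 and 13.38 in the E15.5 cells, and all 11 of its probe sets differed this way. Of 16 tested, these 2 were called higher (12.5%, against 4.12% of all genes) and none lower.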
